A study of Homo sapiens with 8 samples.

Results

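The genes described here encode the protein subunits of the mitochondrial ribosome. Members were the rows of the count table named MRPL or MRPS with a number and an optional letter from A to C, with a normalized read count of 10 or more in at least 2 of the 8 libraries. The name matched 77 of the 25369 rows, and 76 of these passed the minimum, out of 13369 genes that passed it in all. The 1 that did not was MRPS24, which encodes a small subunit protein and was listed at 2 in soft col:rBM replicate 1 and in stiff col replicate 1 and at 0 in the other 6 libraries. In GENCODE the readthrough gene URGCP-MRPS24 covers 23.2% of its exonic bases, and that gene was listed at 0 in all 8 libraries.

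RNA-seq was performed on MCF10A cells, a spontaneously immortalized, nontransformed human mammary epithelial line at passage 8 to 15, after 7 days inside one of 4 hydrogels, with 2 libraries per gel from 2 independent trials. The soft IPN and the stiff IPN were interpenetrating networks of alginate and reconstituted basement membrane (rBM), in which calcium cross-links the alginate of the stiffer gel. The soft col:rBM gel combined collagen-1 with rBM, and the stiff col gel was collagen-1, so that these gels differed in composition as well as in stiffness. All groups were this 1 line, with no transgene or drug named in the labels. The comparisons therefore ask how the transcripts of the mitochondrial ribosome differ with stiffness in the IPNs, with stiffness and composition in the collagen gels, and between the gel systems.

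The mitochondrial ribosome translates the few membrane proteins of the respiratory chain and ATP synthase that the mitochondrial genome still encodes. Its RNA is made inside the organelle, whereas all of its proteins are encoded in the nucleus, made in the cytosol and imported. Many of them descend from bacterial ribosomal proteins, and others have no bacterial counterpart and were added in mitochondria.

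By structure, 30 members were large subunit proteins with a bacterial counterpart and 20 were large subunit proteins specific to mitochondria. Another 15 were small subunit proteins with a bacterial counterpart and 10 were specific to the mitochondrial small subunit. The large subunit class includes MRPS30 and MRPS18A, which keep small subunit names but sit in the large subunit. The remaining member, MRPS36, is no longer counted as a ribosomal protein and is now known as a part of the 2-oxoglutarate dehydrogenase complex.

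The promoters are shown because the members share letters there that the choice of names did not use. RefSeq promoters on GRCh38.p14, each from 250 bases before to 50 after the transcription start, were matched for 67 members. The ETS letters CCGGAAG, a core bound by GABP and related factors, were found on either strand in 28 of the 67 (41.8%), against 19.2% of 10394 promoters of the genes tested. The YY1 letters AAGATGGC were found in 19 (28.4%), against 5.46%. The core of the NRF1 site, CGCATGCG, was found in 3 (4.48%), against 3.86%, and the E box CACGTG in 6 (8.96%), against 9.90%. None of the 4 motifs holds another of them as a part. Within the 250 bases before the start, the YY1 letters remained in 5 of the 67 members (7.46%, against 1.88% of all promoters), so most of the matches lay just past the start. These are matches of letters and were not tested as sites.

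The following stretches run from 70 bases before the start to 30 after it, 5′ to 3′ along the gene, with matches in capitals. Within these stretches, MRPL20 and MRPS18A hold both the ETS and the YY1 letters. MRPL51 (the member with the highest level per length) holds the YY1 letters there, MRPS12 the ETS letters and MRPL22 the NRF1 core. Over the whole window, MRPL51 and MRPS12 also hold both the ETS and the YY1 letters. MRPL22 also holds the YY1 letters and the E box in that window.
MRPL20 (chr1:1407264-1407363, minus strand): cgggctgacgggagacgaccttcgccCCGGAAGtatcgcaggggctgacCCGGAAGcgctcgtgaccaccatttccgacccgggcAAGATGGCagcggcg
MRPS18A (chr6:43687762-43687861, minus strand): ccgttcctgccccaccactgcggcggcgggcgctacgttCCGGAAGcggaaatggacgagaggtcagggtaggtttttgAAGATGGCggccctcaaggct
MRPL51 (chr12:6493233-6493332, minus strand): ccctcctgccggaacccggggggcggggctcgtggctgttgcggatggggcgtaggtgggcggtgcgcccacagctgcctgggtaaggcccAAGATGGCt
MRPS12 (chr19:38930874-38930973, plus strand): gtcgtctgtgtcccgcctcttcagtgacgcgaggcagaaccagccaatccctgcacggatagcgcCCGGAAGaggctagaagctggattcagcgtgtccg
MRPL22 (chr5:154941003-154941102, plus strand): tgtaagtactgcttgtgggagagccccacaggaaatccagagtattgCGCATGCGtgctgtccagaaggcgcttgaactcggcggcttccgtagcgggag

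The members lie on 21 of the chromosomes in the GENCODE annotation of hg19, with 8 on chromosome 1, 8 on chromosome 2 and 7 each on chromosomes 11 and 17. For 17 of the 76 (22.4%), another gene started head to head within 1000 bp, against 11.3% of 12978 genes with a position. MRPL46 and MRPS11, 1 protein from each subunit, share such a start region 63 bp wide. MRPL36 and NDUFS6 are 41 bp apart, as are MRPL47 and NDUFB5, and both partners encode subunits of respiratory complex I. MRPS12 lies 181 bp from SARS2, the mitochondrial seryl-tRNA synthetase. The members' transcripts were short, with a median canonical length of 1287.5 bases against 3282 over the genes tested, and their GC content had a median of 46.4% against 47.8%.

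Values are normalized read counts as deposited, each library's counts scaled by 1 factor. The libraries summed to between 14306848 and 17999273 normalized counts, and by the recovered factors held an estimated 13065615 to 18583116 reads on genes. A count of 3 reads is then worth 2.41 to 3.72 normalized counts, and the lowest value of any member in any library was 179 (MRPL1 in soft col:rBM replicate 1), so depth did not limit the detection of the members. Of the 12 markers of other cell types, PTPRC and COL1A2 were at 0 in all libraries and 5 passed the minimum (CD68, COL1A1, DCN, PECAM1 and PLIN1). CD68, which also marks lysosomes, was at 324 to 5017. The fibroblast markers DCN and COL1A1 were at 526 to 1217 and 168 to 333, and PECAM1 and PLIN1 at 2 to 32 and 2 to 24. The 10 epithelial markers all passed the minimum, and their sum ranged from 124950 to 202957. It was 159075 and 195661 in soft IPN, 147012 and 192808 in stiff IPN, 202957 and 145271 in soft col:rBM, and 154217 and 124950 in stiff col, where it lay below both soft IPN libraries. In bulk RNA, fewer cells of a type and less RNA per cell cannot be told apart.

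Every member was measured at a moderate level in every gel. Mean counts over the 8 libraries ranged from 298 for MRPS31, a small subunit protein, to 2344 for MRPS27, a small subunit protein of a family that binds RNA. Per kb of exonic sequence, the highest members were MRPL51, MRPS21 and MRPL12, at means of 1538, 1470 and 1384 normalized counts per kb. The ranges of these 3 over the 8 libraries overlapped, since MRPL51 ran from 1447 to 1653, MRPS21 from 1253 to 1736 and MRPL12 from 1180 to 1684. The lowest per kb were MRPS25, MRPL46 and MRPS22, at 46.7, 46.9 and 48.8, but their annotated exons are long. Per kb of the canonical transcript the same 3 stood at 187, 305 and 664, which moved MRPS22 from rank 74 to rank 37 of 76. At the high end MRPL51 and MRPS21 kept ranks 1 and 2, MRPL24 moved from rank 6 to rank 3 and MRPL12 from rank 3 to rank 8, so both ends of the order depend on the length used. The library preparation does not mark strand, and 7 members have over 20% of their exonic bases in another gene of the table. Among them are MRPL53 (72.8%, CCDC142), MRPS18A (50.9%, RSPH9), MRPS22 (40.7%), MRPS25 (39.1%, NR2C2) and MRPL51 (27.6%, NCAPD2). For these members, reads of the overlapping genes could not all be told apart. Processed pseudogenes named after the gene are annotated for 36 members.

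Over the 8 libraries, the 3 proteins named after bacterial S18 ranged from 468 to 567 normalized counts for MRPS18A, from 1009 to 1806 for MRPS18B and from 284 to 491 for MRPS18C. MRPL3, which lies near the catalytic centre, ranged from 1690 to 2281, and MRPS12, of the decoding site, from 609 to 845. MRPS30 ranged from 419 to 723.

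The steadiest members and the most variable ones differed widely in their spread over the 8 libraries. MRPL44, which lies near the polypeptide exit tunnel, ran from 695 to 793, an SD of 0.065 on the log2 scale. MRPL51 ran from 2008 to 2295, an SD of 0.071. The largest SDs were those of MRPL1 (0.52), the protein of the mobile L1 stalk, MRPL10 (0.47), the base of the stalk that binds translation factors, and MRPS25 (0.44), a mitochondria-specific small subunit protein. The plot of members by library shows where each of them was high or low.

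**Figure D1:**
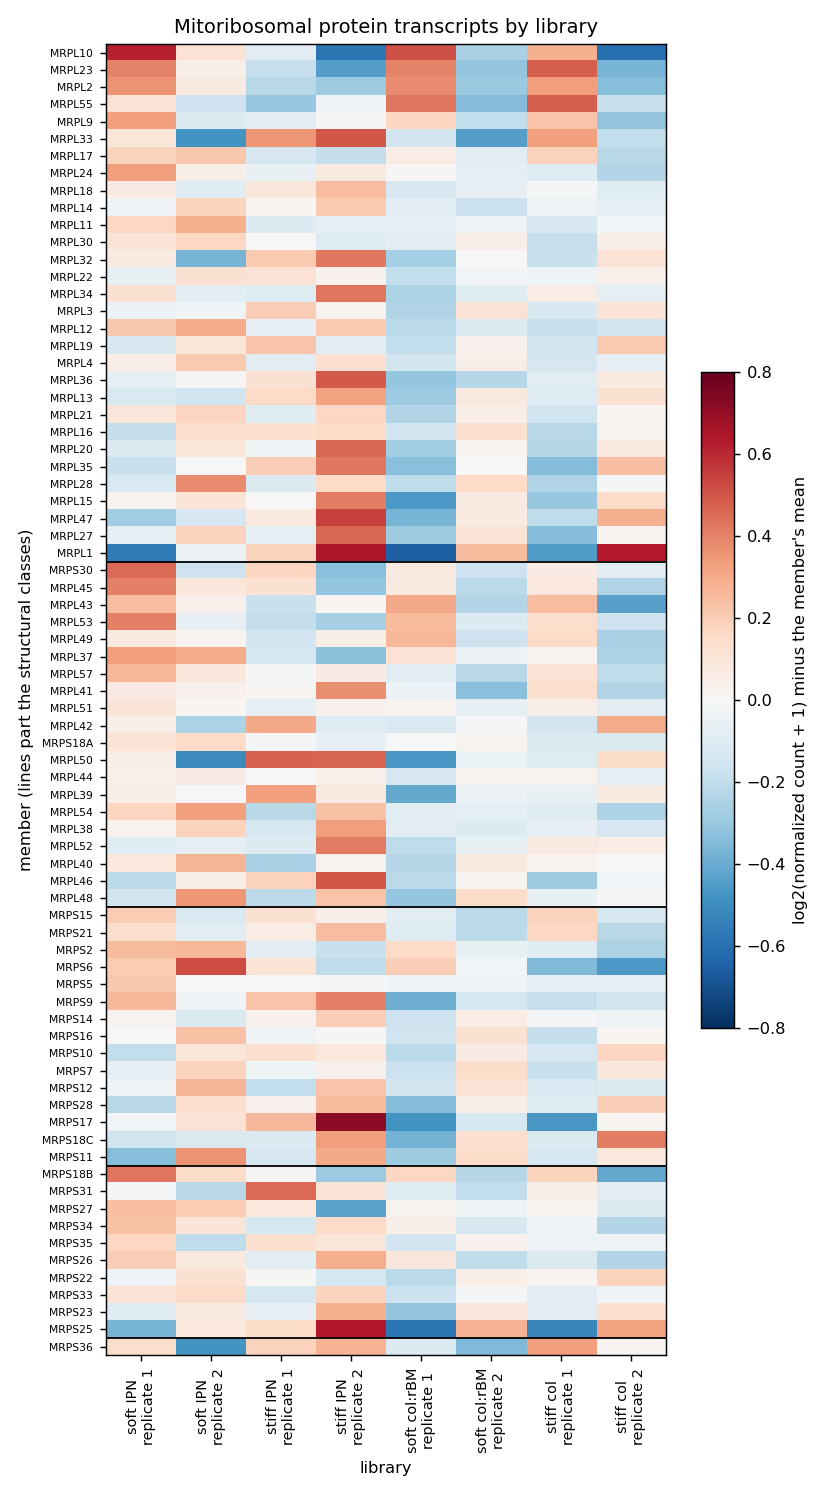
Log2(normalized count + 1) of each of the 76 members (rows) in the 8 libraries (columns), minus the mean of that member, with lines between the structural classes and members ordered within a class by the difference between trials. MRPL10 at the top of the first class is high in replicate 1 of each gel relative to replicate 2 and MRPL1 at its foot is the reverse.

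The summed level of the members was lower in the collagen gels than in the IPNs. Their share of all normalized counts was highest in the stiff IPN, but the 2 IPNs overlapped once the 100 most abundant genes were set aside. Summed over the 76 members, the normalized counts were 73459 and 71803 in the soft IPN, 68869 and 72787 in the stiff IPN, 64681 and 65929 in soft col:rBM, and 66822 and 65131 in stiff col. All 4 collagen libraries thus lay below all 4 IPN libraries. The means ± SD were 72631 ± 1171 (n = 2) for soft IPN, 70828 ± 2770 (n = 2) for stiff IPN, 65305 ± 882 (n = 2) for soft col:rBM and 65977 ± 1196 (n = 2) for stiff col. As a share of all normalized counts, both stiff IPN libraries lay above the other 6, and the soft IPN lay within the range of the collagen gels. The members took 0.409% and 0.399% of the soft IPN libraries, 0.444% and 0.509% of the stiff IPN, 0.362% and 0.423% of soft col:rBM, and 0.385% and 0.436% of stiff col. The 100 genes with the highest sums over the 8 libraries took between 23.2% and 32.3% of a library's counts. This share varied with the trial as well as the gel. With these 100 genes set aside, the members took 0.605% and 0.585% of the soft IPN and 0.604% and 0.663% of the stiff IPN. They took 0.528% and 0.577% of soft col:rBM and 0.553% and 0.584% of stiff col. On that measure the 2 IPNs overlapped, and the 4 collagen libraries lay below the IPN libraries. The ratio of large to small subunit transcripts stayed between 1.71 and 1.82 in all 8 libraries.

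**Figure D2:**
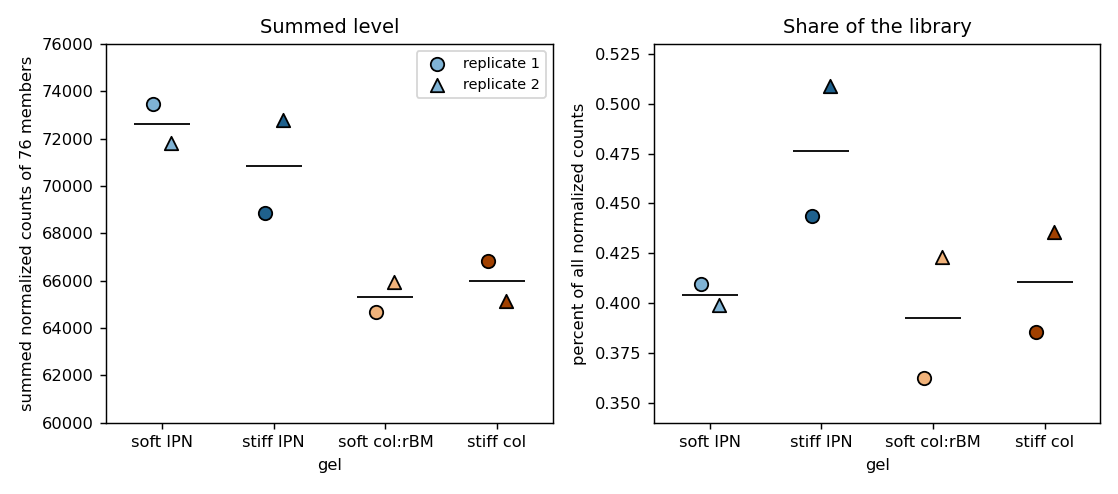
Summed normalized counts of the 76 members (left) and their percentage of all normalized counts (right) in each library, by gel, with the mean of the 2 libraries as a line and axes that do not start at 0. The 4 collagen libraries lie between 64681 and 66822 on the left, below the IPN libraries at 68869 to 73459, and on the right the stiff IPN libraries, at 0.444% and 0.509%, lie above the other 6.

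Between the soft gels, most members were lower in soft col:rBM than in soft IPN. The log2 fold change was below 0 for 68 of the 76 members (89.5%) and for 50.4% of all genes tested, with a median of −0.14 for the members and −0.0027 for all genes. The libraries did not overlap in the lower direction for 29 members (38.2%), against 10.4% of all genes, and did not overlap in the higher direction for 0 members, against 10.3%. Taking each trial by itself, 69 members were lower in replicate 1, 58 in replicate 2 and 51 in both (67.1%, against 27.6% of all genes), and 0 were higher in both (against 26.3%). The reduction was spread over the ribosome: 24 of 30 large subunit proteins with a bacterial counterpart, 19 of 20 mitochondria-specific large subunit proteins, 14 of 15 and 10 of 10 of the corresponding small subunit proteins. When the libraries were rescaled to equal sums, the median became −0.034 while that of all genes became 0.10, so that the members' median remained below that of all genes.

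No single member passed the test in this comparison. By limma with Benjamini-Hochberg adjustment, 0 of 76 members were called at an adjusted p under 0.05, and 0% of all genes. At an unadjusted p under 0.05 there was 1 member (1.32%), against 1.42% of all genes. In the fit that took the trial as a block, 0 members and 0.0224% of all genes were called. There 2 members (2.63%) had an unadjusted p under 0.05, against 4.76% of all genes. For a single gene, 2 libraries against 2 cannot give an exact two-sided permutation p below 0.333.

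MRPL12, the large subunit protein that forms the tip of the stalk and is also known to bind the mitochondrial RNA polymerase, had the lowest fold change. It stood at 1605 and 1699 in soft IPN and at 1191 and 1282 in soft col:rBM, without overlap, a log2 fold change of −0.42 ± 0.17 (SE). In the stiff IPN it was at 1321 and 1600, and in stiff col at 1226 and 1251. The order of the means was soft IPN (1652 ± 66.5), stiff IPN (1461 ± 197), stiff col (1239 ± 17.7) and soft col:rBM (1237 ± 64.3), each with an SD over 2 libraries. The collagen gels were within their spread of each other.

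MRPS9, a small subunit protein of the head, was at 720 and 590 in soft IPN and at 458 and 546 in soft col:rBM, a log2 fold change of −0.38 ± 0.20, with −0.65 in replicate 1 and −0.11 in replicate 2. MRPS17, a small subunit protein with a bacterial counterpart, was at 371 and 409 against 271 and 342, and its fold change was −0.35 ± 0.27. Neither gene's libraries overlapped between the soft gels. At the other end, MRPL1 (0.10), MRPL55 (0.06) and MRPL47 (0.06) had the highest fold changes, each smaller than its SE and with overlapping libraries.

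Other components of mitochondrial expression had the same direction of median in soft col:rBM relative to soft IPN, and 0 of their genes were called. Of 79 nuclear-encoded respiratory chain subunit genes tested, 72 were lower, with a median of −0.16. The 6 mitoribosome proteins with other symbols, such as DAP3, were all lower, with a median of −0.14. Of 20 mitochondrial aminoacyl-tRNA synthetase genes, 19 were lower (median −0.075), as were 8 of 11 translation factors (−0.094) and 11 of 17 assembly factors (−0.087). Cytosolic ribosomal protein genes were lower too, in 80 of 83, with a median of −0.30. The regulators of mitochondrial genes had 3 of 9 lower and a median of 0.042. These comparisons share the same 4 libraries with the members.

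**Figure D3:**
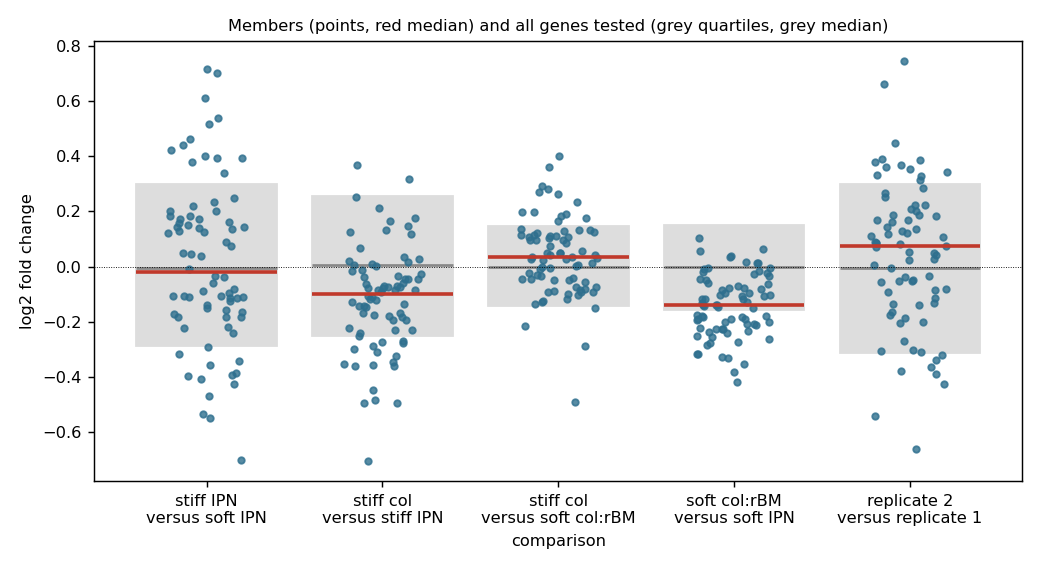
Log2 fold changes of the 76 members (points) with their median (red line) in 4 comparisons of gels and in replicate 2 versus replicate 1, over the quartiles (grey box) and median (grey line) of all genes tested. The members lie mostly below 0 in soft col:rBM versus soft IPN, with a median of −0.14, and on both sides of 0 in stiff IPN versus soft IPN, with a median of −0.021.

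With stiffness in the IPNs, the members moved in both directions and their median did not. In stiff IPN versus soft IPN, 37 members were higher and 39 lower, the median was −0.021 (all genes −0.0062), and single members ranged from −0.70 to 0.72. The libraries did not overlap for 18 members in the higher direction (23.7%, against 20.5% of all genes) and for 19 in the lower (25%, against 21.4%), shares close to the background. By limma 0 of 76 members and 0% of all genes were called. An unadjusted p under 0.05 was found for 2 members (2.63%), against 9.31% of all genes. Once the trial was fitted as a block, 0 members were called, against 3.82% of all genes. In the blocked fit 23 members (30.3%) had an unadjusted p under 0.05, against 24.7% of all genes. In that fit KRT17 (1.88) and CDH1 (0.91) were called higher in the stiff IPN and ITGB4 (−1.45) lower among the 10 epithelial markers, which had 4 higher and 6 lower in all. All 5 markers of other cell types tested were lower, with CD68 (−2.24) called, and the part of these differences was not tested.

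The members on the lower side included the stalk. MRPL10 was at 1310 and 929 in soft IPN and at 802 and 573 in stiff IPN, so both stiff libraries were below both soft ones. Its log2 fold change was −0.70 ± 0.39 (SE, adjusted p = 0.59 by limma). In the blocked fit the SE was 0.16 and the adjusted p = 0.051 by limma. MRPL10 differed between the trials in the same direction in both gels. MRPL11, another stalk protein, was at 725 and 785 against 597 and 612 (−0.32 ± 0.17), and MRPL12 at 1605 and 1699 against 1321 and 1600 (−0.18 ± 0.17, but 0.086 after rescaling to equal sums). Summed, these 3 stalk transcripts were at 3640 and 3413 in soft IPN and at 2720 and 2785 in stiff IPN, and at 3028 and 2629 in soft col:rBM and 2859 and 2447 in stiff col. The soft IPN thus had the highest stalk sums of the 4 gels, while the other 3 gels overlapped.

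MRPL37, a mitochondria-specific large subunit protein, was at 2587 and 2522 in soft IPN and at 1856 and 1635 in stiff IPN, a log2 fold change of −0.55 ± 0.18 (adjusted p = 0.50 by limma, 0.059 with the trial as a block). Both soft libraries were well above both stiff ones. MRPL23, at the exit of the polypeptide tunnel, was at 1379 and 1079 against 918 and 769 (−0.54 ± 0.35). When gene length and GC content were corrected for together with the trial block, 4 members were called lower (MRPL10, MRPL37, MRPL53 and MRPS30). That is 5.26% of the members against 5.6% of all genes. MRPL10 was at −0.68 (adjusted p = 0.032 by limma) and MRPL37 at −0.53 (adjusted p = 0.046 by limma). MRPL53 shares 72.8% of its exonic bases with CCDC142, so its reads could not all be told apart from that gene's.

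On the higher side, MRPL1 was at 191 and 274 in soft IPN and at 321 and 443 in stiff IPN (0.72 ± 0.45). MRPL50, a mitochondria-specific large subunit protein, was at 570 and 387 against 765 and 764 (0.70 ± 0.25). MRPL33, a small protein of the large subunit, was at 798 and 536 against 953 and 1052 (0.61 ± 0.27). None of the 3 overlapped between the IPNs, and none was called. By trial, the difference was 0.26 in replicate 1 and 0.97 in replicate 2 for MRPL33, and 0.42 and 0.98 for MRPL50.

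The direction of a member's change in the stiff IPN was related to its GC content. Across the 76 members the log2 fold change had a Pearson's r of −0.46 and a Spearman's rho of −0.49 with the GC percentage of the longest transcript. These are members of the same libraries and not independent replicates. In the third of the members with the lowest GC (33.5% to 43.4%), 20 of 26 were higher and the median was 0.18. In the third with the highest (52.1% to 66.7%), 20 of 25 were lower and the median was −0.16. All genes with the same GC limits had medians of 0.14 and −0.15, with 65.7% of 4342 genes higher at low GC and 63.5% of 4866 genes lower at high GC, so the members followed the other genes of their base composition. In soft col:rBM versus soft IPN, r was −0.44, and the members' medians from low to high GC were −0.039, −0.18 and −0.19, against 0.071, −0.014 and −0.076 for all genes. There the members lay below the other genes at each GC level. The part of GC content in these results was not tested beyond the corrected fit.

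**Figure D4:**
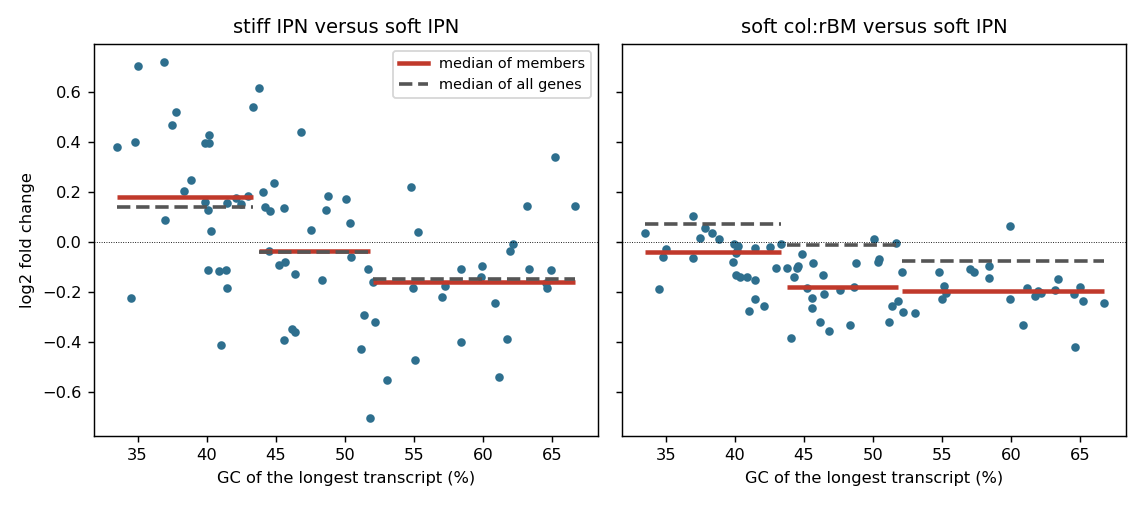
Log2 fold change of each member against the GC percentage of its longest transcript, in stiff IPN versus soft IPN (left) and soft col:rBM versus soft IPN (right), with the median of the members (red) and of all genes (dashed grey) in 3 ranges of GC. On the left both medians fall from above 0 (0.18 and 0.14) to below it (−0.16 and −0.15), and on the right the members lie below all genes in each range.

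The ribosomal protein genes of the cytosol, which encode the other ribosome of the cell, are given beside the members. In stiff IPN versus soft IPN, 77 of 83 cytosolic ribosomal protein genes were lower, with a median of −0.68, and 33 were called lower with the trial as a block by limma with Benjamini-Hochberg adjustment, against 0 of the 76 members. The difference between these lists was not tested. The respiratory chain genes, with 37 higher and 42 lower and a median of −0.032, had 1 gene called lower in that fit.

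In stiff col versus stiff IPN, most members were lower in collagen. Of the 76, 58 were lower and 18 higher, with a median of −0.099 against 0.0038 for all genes. The libraries did not overlap for 20 members in the lower direction (26.3%, against 15.8% of all genes) and for 2 in the higher (2.63%, against 15.1%). Both trials gave the lower direction for 34 members and the higher for 4, against 27.3% and 28.2% of all genes. By limma 0 members and 0% of all genes were called. An unadjusted p under 0.05 was found for 2 members (2.63%), against 6.27% of all genes. In the blocked fit, 0 members and 2.47% of all genes were called. There 6 members (7.89%) had an unadjusted p under 0.05, against 18.9% of all genes. Of the 10 epithelial markers, 7 were lower in stiff col, with a median of −0.52, and by limma with the block KRT14 (−1.52), KRT17 (−2.57), EPCAM (−1.71) and CDH1 (−1.63) were called lower. Of the 5 markers of other cell types tested, 4 were higher and CD68 (1.72) was called. The part of these differences in those of the members was not tested.

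MRPS17 had the lowest fold change, with 451 and 620 in stiff IPN against 273 and 383 in stiff col, −0.71 ± 0.27 (adjusted p = 0.71 by limma, 0.070 with the block). Its libraries did not overlap. MRPL46, a mitochondria-specific large subunit protein, was at 337 and 418 against 242 and 292 (−0.50 ± 0.24), also without overlap. MRPS25 was at 911 and 1281 against 572 and 1026 (−0.50 ± 0.39), and there the libraries overlapped. The highest fold changes were those of MRPL23 (0.37 ± 0.35), MRPL55 (0.32 ± 0.33) and MRPL2 (0.25 ± 0.31), in which MRPL23 had 918 and 769 in stiff IPN and 1455 and 808 in stiff col. Without stiff col replicate 1 the values of these 3 became −0.056, −0.017 and −0.086, in a fit where stiff col is replicate 2 alone. Within replicate 2, MRPL23 was higher in stiff col than in stiff IPN (808 against 769). MRPL55 (455 against 506) and MRPL2 (357 against 370) were lower there.

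Within the collagen system the median of the members was close to 0. In stiff col versus soft col:rBM, 46 members were higher and 30 lower, with a median of 0.035 (all genes −0.0035). The libraries did not overlap for 6 members in each direction (7.89%), against 9.51% of all genes higher and 9.5% lower. By limma 0 members and 0% of all genes were called, with and without the trial as a block. In either fit 1 member (1.32%) had an unadjusted p under 0.05. The share of all genes was 1.05% without the block and 3.72% with it.

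MRPS6, a small subunit protein of the platform, was the lowest. It was at 1428 and 1226 in soft col:rBM and at 976 and 905 in stiff col, −0.49 ± 0.20. In the IPNs it was at 1434 and 1790 when soft and at 1345 and 1082 when stiff (−0.41 ± 0.20), which was −0.092 in replicate 1 and −0.73 in replicate 2. MRPS6 was thus below the soft gel in both stiff gels without overlap. The same held for MRPS2, MRPS5 and MRPS18A, whereas MRPL36, MRPS31 and MRPS36 were above the soft gel in both stiff gels without overlap. These 4 lower members (5.26%) and 3 higher members (3.95%) stand against 4.23% and 3.67% of all genes, shares close to the background. MRPS2, a small subunit protein, was at 1304 and 1316 in soft IPN, 1035 and 969 in stiff IPN, 1216 and 1049 in soft col:rBM and 1026 and 919 in stiff col. MRPS36 was at 517 and 337 in soft IPN, 534 and 569 in stiff IPN, 436 and 367 in soft col:rBM and 589 and 475 in stiff col, with a fold change of 0.40 ± 0.26 in the collagen gels. In the IPNs its difference was 0.047 in replicate 1 and 0.75 in replicate 2. MRPL10 (−0.29 ± 0.39), MRPL1 (0.29 ± 0.45) and MRPL33 (0.36 ± 0.27) were also among the outermost members.

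The effect of stiffness was compared directly between the systems. The difference of the log2 fold changes, collagen minus IPN, had a median of 0.021 over the members and of 0.010 over all genes, and was above 0 for 47 members. It was lowest for MRPS25 (−0.49 ± 0.55), MRPL46 (−0.48 ± 0.33) and MRPL1 (−0.43 ± 0.64), and highest for MRPL23 (0.55 ± 0.49), MRPL2 (0.43 ± 0.44) and MRPL10 (0.41 ± 0.55). By limma 0 members and 0% of all genes were called. At an unadjusted p under 0.05 there were 0 members, against 2.08% of all genes. The blocked fit called 0 members and 0.015% of all genes. Again 0 members had an unadjusted p under 0.05, against 9.88% of all genes. Opposite directions in the 2 systems, each without overlap, were seen for 0 of 76 members, against 1.77% of all genes.

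Single members were called between the trials. With a mean for each gel in the fit, 13 of 76 members (17.1%) differed between replicate 2 and replicate 1, 8 higher and 5 lower, against 27.1% of all genes, by limma with Benjamini-Hochberg adjustment. The share of members was thus below the background. Replicate 2 was higher in all 4 gels for 25 members (32.9%, against 21.4% of all genes) and lower in all 4 for 11 (14.5%, against 23.1%), and the median was 0.074 against −0.0056 for all genes.

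MRPL1 rose from 191 to 274 in soft IPN, from 321 to 443 in stiff IPN, from 179 to 337 in soft col:rBM and from 206 to 440 in stiff col, a log2 difference of 0.75 ± 0.15 (adjusted p = 0.011). MRPS25 rose by 0.66 ± 0.11 (adjusted p = 0.0071), from 634 to 871, 911 to 1281, 548 to 998 and 572 to 1026 in the same order of gels. MRPL10 fell by 0.66 ± 0.11 on the log2 scale (adjusted p = 0.0067), from 1310 to 929, 802 to 573, 1226 to 715 and 1044 to 562. Each of these 3 genes had the same sign in all gels and a larger difference in the collagen gels.

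MRPS11 (0.45), a small subunit protein, was also called higher in replicate 2. So were MRPL27 (0.39), MRPL47 (0.39), MRPL15 (0.37), MRPL28 (0.34) and MRPL20 (0.33), all large subunit proteins with bacterial counterparts. MRPL23 (−0.54), MRPS18B (−0.39), MRPS30 (−0.38) and MRPL45 (−0.34) were called lower, of which MRPL45 is known to attach the ribosome to the inner membrane. MRPL46 and MRPS11, which share a start region, had differences of 0.27 and 0.45, and MRPL46 was not called.

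The number of calls differed with the gels in the fit. With the collagen gels alone 45 members were called (59.2%, against 57.1% of all genes), and with the alginate gels alone 0 members by limma, against 0.681% of all genes. With the alginate gels alone, 4 of 76 members had an unadjusted p under 0.05, a smaller share than the 1946 of 13369 genes. Of the 13 members, MRPS30 was not called with the collagen gels alone (−0.19, adjusted p = 0.084 by limma), against −0.56 with the alginate gels alone. MRPS11 (0.57), MRPL28 (0.39) and MRPL45 (−0.38) had larger fitted differences with the alginate gels alone than with all gels, and were not called there. The same held by a small margin for MRPL20 (0.35) and MRPL27 (0.395). With the correction for gene length and GC content 22 members were called (28.9%, against 33.3%). The 13 members had the same sign in all 4 gels, as the plot of the trial differences shows.

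**Figure D5:**
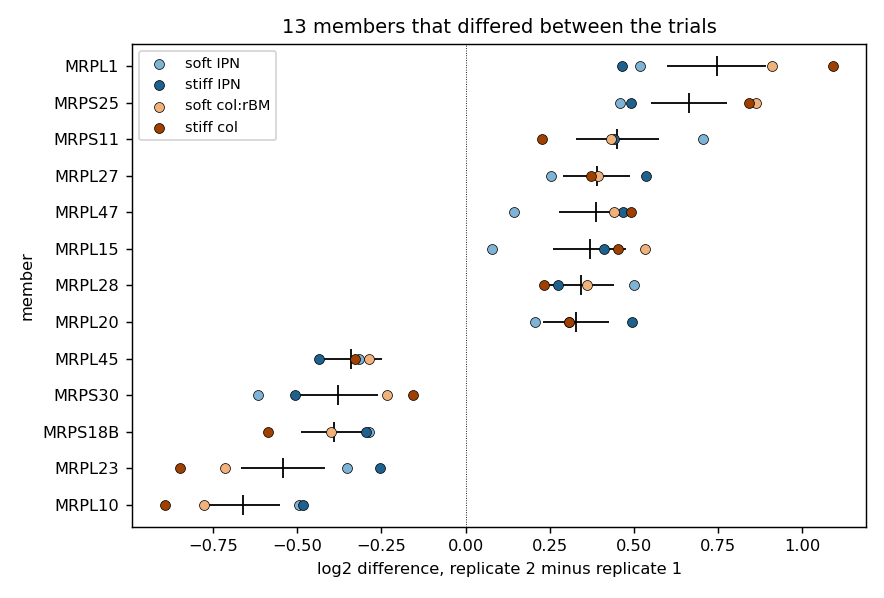
Log2 difference of replicate 2 minus replicate 1 in each gel (coloured points) for the 13 members called, with the fitted difference (tick) and its SE (bar, from 8 libraries). MRPL1 and MRPS25 reach 0.75 and 0.66 and MRPL10 lies at −0.66, and the points of each member fall on one side of 0.

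Other genes moved between the trials too. In the fit over the 4 gels, all 10 proliferation genes were higher in replicate 2, with 5 called, among them PCNA (1.16) and TYMS (1.15). Their sum was 8650 and 15376 in soft IPN, 10658 and 8839 in stiff IPN, 8770 and 15100 in soft col:rBM, and 8219 and 14513 in stiff col. The stiff IPN thus had a lower sum in replicate 2. There MKI67, TOP2A, CCNB1, CDK1, BUB1, PLK1 and MCM2 were lower in replicate 2, and AURKB, PCNA and TYMS were higher. Among the epithelial markers called, KRT5 (1.35), KRT14 (1.94), KRT17 (1.80) and TP63 (0.97) were higher and ITGB4 (−0.91) was lower, and CD68 fell by 1.74 on the log2 scale. In mitochondrial translation, 4 of 11 factors were called higher, including the elongation factor GFM1 (0.72) and the ribosome recycling factor MRRF (0.43). Of 17 assembly factors, MTG1 (1.09) and FTSJ2 (0.66) were called higher and NOA1 (−0.88) and RPUSD4 (−0.50) lower. Of the cytosolic ribosomal protein genes, 34 of 83 were called lower and 1 higher. The part of these differences in those of the members was not tested, and what differed between the trials is not given in the sources used here.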

How the data were processed

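MCF10A RNA was sequenced from 8 libraries, 2 for each of 4 gels, made with a poly(A) kit that does not mark strand. According to the labels and methods, the authors trimmed reads (Trim Galore 0.3.3), aligned them to hg19 (TopHat2 2.0.13 in the submitters' processing notes, Bowtie2 in the methods), removed multimapped reads, counted genes with HTSeq and normalized with DESeq2. SAMtools 1.1 and R 3.2.0 are also named. The annotation and strand setting are not given in the sources used here. The deposited values are a signal: gene counts that the authors divided by 1 factor per library and rounded. The whole reads behind them were not used for a count test.

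From these, log2(value + 1) was fitted with limma 3.58.1 in R 4.3.3 with a trend and robust moderation, over 13369 genes at 10 or more in at least 2 libraries, with 1 mean per gel and all 8 libraries. P-values were adjusted by Benjamini-Hochberg over all genes tested, and 0.05 was the threshold. Fold changes are on that log2 scale, which understates low genes. The replicates are 2 independent trials, and p-values cover the spread between these libraries. Deviations from the gel means in same-numbered libraries correlated in all 6 pairs of gels (r = 0.278 to 0.819 over all genes), so the trial was also fitted as a block. Factors were recovered from gaps in each library's values, and reads estimated from them cover counting error only. Gene positions, lengths and GC content came from GENCODE 44 lifted to hg19 (90.5% of symbols matched), promoters from RefSeq on GRCh38.p14. The fits were tested on simulated data.

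Members, gene lists and the rule for named genes were chosen with earlier results of these data known. Named were the 3 highest and lowest members of each comparison, those called, the 3 highest and lowest per length and a list of landmark proteins. MRPS5, MRPL44, MRPL53, MRPL36 and MRPS31, and the other steadiest members, were named after their values were seen. Alternatives changed the pseudocount, the filter, the scaling, the block, the libraries, gene length and the promoter window. Means are given with an SD over 2 libraries.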

Additional observations from a re-analysis of the deposited data

How the results depend on the processing

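The gel comparisons called 0 members under every alternative run except the replicate block with correction for gene length and GC content. That fit called 4 in stiff IPN versus soft IPN (5.26%, against 5.6% of all genes). The replicate block by itself changed no call of a member in a gel comparison, and its lowest adjusted p was 0.051 (MRPL10). The trial comparison called 13 members (17.1%, against 27.1% of all genes) and 22 with that correction (28.9%, against 33.3%). It called 0 with alginate gels alone (against 0.681%) and 45 with collagen gels alone (59.2%, against 57.1%). After rescaling to equal sums 20 were called, where the share of all genes was not summarized. Leaving out 1 library gave 2 to 33: 33 and 30 without stiff IPN replicate 1 and replicate 2, 4 without either soft IPN library and 2 without any 1 of the collagen libraries. For these fits too the share of all genes was not summarized. That share also changed with the gels fitted, so these counts alone do not describe the members.

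Rescaling to equal sums moved the medians of the members to 0.25 in stiff IPN versus soft IPN, −0.21 in stiff col versus stiff IPN, −0.034 in soft col:rBM versus soft IPN, −0.20 for the difference of stiffness effects and 0.20 between trials, where the medians of all genes became 0.26, −0.11, 0.10, −0.21 and 0.12. For stiff IPN versus soft IPN the median was −0.079 with the replicate block and the correction, and 0.045 without the 7 members that share over 20% of their exonic bases (chosen after seeing the data), and it ranged from −0.10 to 0.044 when 1 library was left out. Leaving out 1 library gave medians from −0.20 (without stiff IPN replicate 1) to −0.068 in stiff col versus stiff IPN, and from −0.029 (without soft col:rBM replicate 1) to 0.078 in stiff col versus soft col:rBM. A gel with 1 library left out is represented by 1 trial only, and the causes were not tested.

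Single members with small fold changes reversed when 1 library was left out. The fits with a library left out had no trial block. A gel with 1 library then stood for 1 trial beside both trials of the other gel, so differences between trials enter these values. In stiff col versus soft col:rBM, MRPL10 became 0.099 without soft col:rBM replicate 1 and 0.16 without stiff col replicate 2, and MRPL1 −0.16 and −0.25, with the other ends of their ranges at −0.74 and 0.84. Compared within a trial, neither changed sign. From soft col:rBM to stiff col, MRPL10 went from 1226 to 1044 in replicate 1 and from 715 to 562 in replicate 2. MRPL1 went from 179 to 206 and from 337 to 440. In stiff col versus stiff IPN without stiff col replicate 1, MRPL2, MRPL55 and MRPL23 became −0.086, −0.017 and −0.056, and without stiff col replicate 2 they were 0.59, 0.65 and 0.79. In soft col:rBM versus soft IPN, MRPL47 became −0.017 and −0.16 without soft IPN replicate 1 and soft col:rBM replicate 2, and −0.013 with the replicate block and correction. There MRPL55 became −0.079 and −0.32 without soft IPN replicate 2 and soft col:rBM replicate 1, and MRPL1 −0.16 and −0.35 without soft IPN replicate 1 and soft col:rBM replicate 2, and the highest values were 0.28 for MRPL47, 0.45 for MRPL55 and 0.56 for MRPL1. The difference of stiffness effects became 0.029 and 0.12 for MRPL1 without soft col:rBM replicate 2 and stiff col replicate 1, and −0.034 for MRPL10 without the latter, and without stiff col replicate 2 it was −0.97 and 0.86. In stiff IPN versus soft IPN, MRPL12 became 0.086 after rescaling to equal sums and MRPS36 −0.061 with the replicate block and correction. By trial, the soft col:rBM versus soft IPN difference of MRPS6 was −0.0060 in replicate 1 and −0.55 in replicate 2, and the stiff col versus stiff IPN difference of MRPL55 was 0.79 and −0.15. Each gel had 2 libraries.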
